A study of Mus musculus with 11 samples.

Results

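The smooth muscle contractile genes described here were 34 genes of the contractile and sarcomere-associated apparatus, listed by symbol and looked up among the 27998 genes of the 10X gene table. Each of the 34 symbols was found, and 23 to 34 of them had at least 1 unique molecular identifier (UMI) in a library, against 14742 to 16289 genes of the whole table. The list was drawn up by gene name, with earlier results of these data known.

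Smooth muscle cells shorten when myosin filaments pull on actin filaments. Calcium released from the sarcoplasmic reticulum or entering the cell binds calmodulin, calmodulin switches on myosin light chain kinase, and the kinase phosphorylates the regulatory light chain of myosin. Tropomyosin, caldesmon, calponin and transgelin lie along the actin filament, and filamin, vinculin, α-actinin and desmin tie it to the membrane and to the rest of the cytoskeleton. Hepatic stellate cells (HSCs), the pericytes of the liver sinusoid, are known to take up some of these genes, above all Acta2, when they are activated by injury, whereas vascular smooth muscle cells (VSMCs) of the portal vessels and arteries express them in the healthy liver. The question here was which members HSCs gained after injury and which stayed with VSMCs.

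Hepatic mesenchymal cells came from male Pdgfrb-BAC-eGFP mice on C57BL/6, in which a bacterial artificial chromosome drives GFP in cells that use the Pdgfrb promoter, so a mesenchymal cell that does not use that promoter was not sampled. Cells with GFP and without CD45 or CD102 were sorted, and both the uninjured and the injured groups carried the reporter. The paper used 2 digestion protocols and 2 gating strategies. For 10X Chromium, cells of 3 mice were pooled into each of 5 libraries. Digestion protocol 2, named HSC in the labels, isolated HSCs on a Histodenz density gradient before sorting. This protocol gave 1 library of uninjured mice, 1 of mice 72 h after an injection of carbon tetrachloride (CCl4), which injures the liver around the central vein, and 1 of mice given CCl4 for 6 weeks. Digestion protocol 1, named PF in the labels, gave 1 library of uninjured mice and 1 of mice given CCl4 for 6 weeks. Cells sorted into wells for Smart-seq2 came from uninjured mice, from mice 14 days after the bile duct was tied off (bile duct ligation, BDL) and from mice on CCl4 for 6 weeks. Each 10X condition and digest was 1 pooled library, so differences between 10X groups have no replicate check. Their intervals cover counting error at 95%, and no test was made on them.

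The cells kept per 10X library numbered 5454 to 7310, with 25962957 to 86661230 UMIs and a median of 4299 to 11343.5 UMIs per cell. Library pairs shared 33 to 74 cell barcodes (0.584% to 1.31% of a library). Clustering without the members gave 6850, 7296 and 5445 HSC-like cells in the uninjured, 72 h and 6-week libraries of protocol 2. In protocol 1 there were 1642 VSMC-like and 4086 fibroblast (FB)-like cells without injury and 2948 and 2695 at 6 weeks. No VSMC-like cell was found in any library of protocol 2, so the cell class and the digest cannot be told apart when HSC-like and VSMC-like cells are compared. The 6 VSMC markers, none of them a member, summed to 5232 and 5346 counts per 1000000 UMIs (CPM) in VSMC-like cells and to 1376, 1690 and 1326 CPM in the 3 HSC-like groups, where Mustn1 alone gave 840.1, 1207 and 904.8 CPM. In the same order the 6 FB markers summed to 30.5, 285.6 and 536 CPM in HSC-like cells. Their part in the changes of the members was not tested.

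Serum response factor binds the CArG box, which is CC, 6 bases of A or T, and GG, and many contractile genes are known to carry one near their start. No RefSeq promoter was found for Actg2, Tagln, Myh11, Tcap, Sh3bgr and Nrip2, which all stayed with VSMC-like cells by the rule given below. RefSeq promoters (GRCm38.p6, 250 bases before to 50 bases after the start) were matched for the other 28 of the 34 members. A CArG box on either strand was present in 5 of them (17.9%; Actc1, Myl9, Myl6, Vcl and Fbxl22), against 1.81% of the 27025 genes of the promoter table. With 1 inner base changed to C or G, 6 of the 28 members (21.4%) and 9.69% of all genes had a match. The 250 bases upstream of 4 members are shown because they differ in their patterns below. Acta2 and Fbxl22 were gained by HSC-like cells, Myl9 stayed with VSMC-like cells, and Vcl was higher in each HSC-like group than in uninjured VSMC-like cells. Capitals mark both kinds of box, and the sequences run 5′ to 3′ on the strand of the gene.
Acta2, chr19:34255374-34255623, minus strand: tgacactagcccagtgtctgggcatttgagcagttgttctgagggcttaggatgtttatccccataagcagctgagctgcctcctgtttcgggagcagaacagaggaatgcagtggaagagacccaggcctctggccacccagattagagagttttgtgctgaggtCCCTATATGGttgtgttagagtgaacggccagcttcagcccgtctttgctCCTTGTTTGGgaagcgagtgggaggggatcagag
Fbxl22, chr9:66514594-66514843, minus strand: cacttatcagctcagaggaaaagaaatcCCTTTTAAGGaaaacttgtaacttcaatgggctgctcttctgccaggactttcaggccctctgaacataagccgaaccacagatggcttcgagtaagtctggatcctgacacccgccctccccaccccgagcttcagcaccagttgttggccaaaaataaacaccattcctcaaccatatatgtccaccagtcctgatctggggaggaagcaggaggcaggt
Myl9, chr2:156775214-156775463, plus strand: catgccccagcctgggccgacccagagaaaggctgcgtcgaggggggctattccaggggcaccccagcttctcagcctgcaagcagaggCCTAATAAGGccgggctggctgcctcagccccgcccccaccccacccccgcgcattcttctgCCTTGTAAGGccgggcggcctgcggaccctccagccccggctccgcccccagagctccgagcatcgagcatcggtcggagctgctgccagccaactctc
Vcl, chr14:20929148-20929397, plus strand: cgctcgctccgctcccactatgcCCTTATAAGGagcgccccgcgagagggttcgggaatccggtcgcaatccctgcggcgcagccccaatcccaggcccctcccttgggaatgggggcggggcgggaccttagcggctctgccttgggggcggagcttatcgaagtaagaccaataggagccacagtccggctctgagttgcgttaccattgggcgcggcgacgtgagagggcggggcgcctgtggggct
Acta2 had no complete box in this window and a pair with 1 changed base, CCCTATATGG at -84 and CCTTGTTTGG at -34 from the start. The complete boxes lay at -222 in Fbxl22 (CCTTTTAAGG), at -161 in Myl9 (CCTAATAAGG) and at -227 in Vcl (CCTTATAAGG). A match describes these letters and was not tested for binding. Complete boxes were thus found in a gained member, in a member that stayed and in members that did neither. Among members with a promoter, 1 of 13 that stayed, 1 of 7 gained and 3 of 12 others had one.

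At 72 h after CCl4, HSC-like cells gained a part of the contractile set and not the whole. A member was counted as raised or lowered when its level differed at least 2-fold and the higher level was at least 10 CPM. By that rule 8 of the 21 members that reached 10 CPM were raised and 0 were lowered, against 7.06% raised and 9.54% lowered among all 8384 genes that reached 10 CPM. The median ratio was 1.73 over these members and 0.859 over all those genes. Membership of the 21 depends in part on the 72 h level, since a member low in both libraries could not enter, and the other 13 were below 10 CPM in both. Among the 8 raised, Actg2, Lmod1, Hspb6 and Tnnt2 reached 10 CPM only at 72 h, so their entry depends on that level.

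Of the 3 actins, Acta2 and Actg2 were raised. Acta2, which encodes smooth muscle α-actin and lies at chr19:34241090-34255590, was at 26.0 CPM in uninjured HSC-like cells (95% interval 24.6 to 27.6), 871.5 CPM at 72 h (865.3 to 877.8) and 155.7 CPM at 6 weeks (152.3 to 159.1). The level was thus highest at 72 h and stood between the other two at 6 weeks. The ratio to uninjured cells was 33.5 (31.6 to 35.5) at 72 h and 5.98 (5.63 to 6.36) at 6 weeks. A UMI of Acta2 was seen in 4.04% of uninjured cells, 70.6% at 72 h and 23.9% at 6 weeks, and after each cell was thinned to 2000 UMIs in 2.06%, 42.4% and 10.9%, which left out 115, 0 and 0 shallower cells. These libraries were sequenced to a median of 6717.5, 11350 and 9893 UMIs per HSC-like cell, and the order was the same in thinned cells. FB-like cells numbered 0, 14 and 9 in them, too few for a background share.

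Actg2 (chr6:83512905-83536265), the γ-actin typical of visceral smooth muscle, had 12 UMIs in uninjured HSC-like cells (0.259 CPM), 1680 at 72 h (19.4 CPM) and 48 at 6 weeks (0.920 CPM). Its 72 h ratio of 75.1 had the wide interval of 42.9 to 146 that 12 UMIs allow. The cardiac actin Actc1 had 0, 4 and 0 UMIs in the same libraries. A true count of 0 allows up to 0.0647 CPM in the first and 0.0575 CPM in the last. Here and below, a count of 0 can also stand for a gene seen in fewer than 3 cells of the library.

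Among the proteins that lie along the actin filament, Tpm1 (tropomyosin 1, chr9:67022590-67049406) rose from 202.9 CPM to 826.4 CPM at 72 h, a ratio of 4.07 (3.99 to 4.16), and was at 388.1 CPM at 6 weeks (1.91). Tpm2 (chr4:43514711-43523765) went from 168 to 357 CPM, a ratio of 2.12 (2.07 to 2.18), with 224.2 CPM at 6 weeks. Tpm2 was within 2-fold at 72 h without the HSC-like cells of cluster 2 (led by Cxcl10 and Irf1). That left 7 members raised, beside 581 of all 8433 genes that reached 10 CPM. Tpm2 was also not raised without the cells that had UMIs of at least 2 VSMC markers, and neither were Actg2 and Fbxl22. Cluster 2 held 2772 of the 6850 uninjured, 43 of the 7296 72 h and 2291 of the 5445 6-week HSC-like cells. Beyond the count of members raised, what this difference contributed to the 72 h ratios was not tested. Both tropomyosins were present in most uninjured HSC-like cells, with a UMI in 66% and 56.7% of them. Lmod1 (leiomodin 1, chr1:135324807-135368065), which starts new actin filaments, was at 4.10, 12.1 and 13.7 CPM in the 3 libraries. It was the only member besides Acta2 to be raised at both times, by 2.94-fold (2.52 to 3.45) and 3.33-fold (2.84 to 3.93), and it was seen in 2.12%, 10.5% and 8.03% of the cells. Tnnt2 (chr1:135836354-135852260), the troponin T of heart muscle, had 32 UMIs without injury (0.690 CPM), 1826 at 72 h (21.1 CPM) and 66 at 6 weeks (1.27 CPM), and its 72 h ratio was 30.6 (21.6 to 44.9).

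Transgelin was just below 2-fold at 72 h. Tagln, an actin-binding protein often used beside Acta2 as a marker of activation, was at 381.6 CPM without injury, 740.3 CPM at 72 h and 582.1 CPM at 6 weeks. The 72 h ratio was 1.94 (1.91 to 1.97) and the 6-week ratio 1.53 (1.5 to 1.55), and 57.9% of uninjured HSC-like cells already had a UMI of it. With TMM (trimmed-mean) scaling Tagln and Pdlim7 passed the 2-fold line at 72 h and 10 members were raised, beside 728 of all 8359 genes. Both also passed without the cells that had UMIs of at least 2 VSMC markers, 94% of the 72 h HSC-like cells, and Tagln passed with a finer clustering (Leiden resolution 0.8). Caldesmon (Cald1), which blocks myosin from actin, went from 734.8 to 624.5 CPM at 72 h and 577.7 CPM at 6 weeks. Smtn (smoothelin), a marker of contractile smooth muscle, had the lowest 72 h ratio among the 21 members, 0.524 (0.507 to 0.541), with 163.6, 85.7 and 101.8 CPM.

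The other 2 members raised at 72 h were Hspb6, a small heat shock protein linked to smooth muscle relaxation (chr7:30552178-30555443), and Fbxl22, an F-box protein of the sarcomere (chr9:66508459-66514593). Hspb6 went from 3.88 to 42.7 CPM, a ratio of 11.0 (9.47 to 12.9), and was at 6.65 CPM at 6 weeks. Fbxl22 went from 17.4 to 38.8 CPM, a ratio of 2.23 (2.07 to 2.41), and was at 31.6 CPM at 6 weeks. Both were already measurable in uninjured HSC-like cells, with a UMI in 2.2% and 8.58% of them.

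The motor proteins did not follow the actins. Myh11 (chr16:14194535-14291372), the smooth muscle myosin heavy chain, was at 18.6, 22.9 and 28.2 CPM in the 3 libraries, with ratios of 1.23 (1.14 to 1.34) at 72 h and 1.52 (1.40 to 1.66) at 6 weeks. Myl9, the regulatory light chain, was at 415.8, 424.8 and 315.5 CPM, and its 72 h ratio was 1.02 (1.00 to 1.04). The essential light chain Myl6 had ratios of 1.30 and 0.821, and the kinase Mylk, which phosphorylates Myl9, had ratios of 1.22 and 1.33. Each of the 4 motor genes stayed within 2-fold at both times. Of the genes that anchor the filaments, Des (desmin), long used to recognise HSCs in rodents, was at 402.8, 432.6 and 302.1 CPM, and Vcl, Flna, Actn1 and Csrp1 had 72 h ratios of 0.823, 0.941, 1.73 and 1.52. Pdlim7, a LIM protein of the actin cytoskeleton, had a 72 h ratio of 1.89 (1.82 to 1.96), the nearest below the threshold after Tagln.

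**Figure D1:**
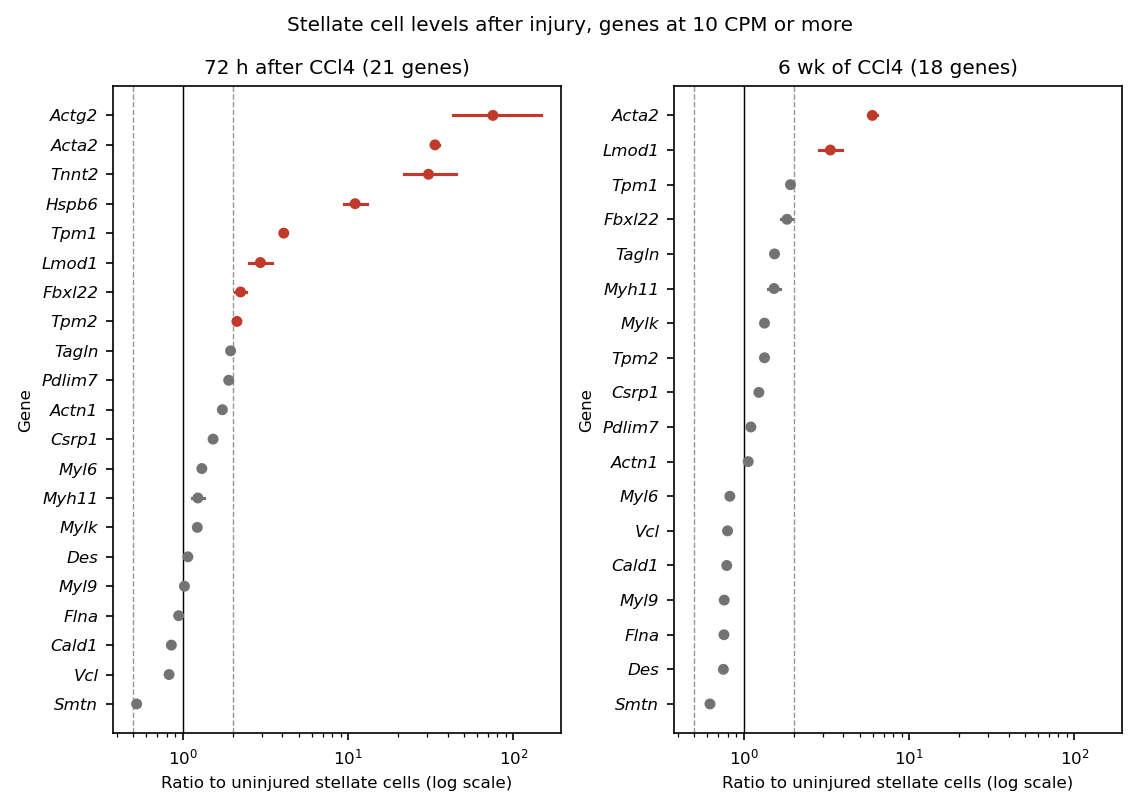
Ratio of levels in HSC-like cells after CCl4 to those in uninjured HSC-like cells on a log axis, for the 21 members that reached 10 CPM at 72 h (left) and the 18 that did at 6 weeks (right). Bars are 95% counting intervals, dashed lines mark 2-fold and raised members are red. At 72 h the raised members run from Tpm2 at 2.12 to Actg2 at 75.1, and at 6 weeks only Acta2 at 5.98 and Lmod1 at 3.33 pass the line.

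Some members went from a count of 0 after the gene filter to a measurable level at 72 h and yet did not reach 10 CPM. Pdlim3, an α-actinin partner, had 0 UMIs in uninjured HSC-like cells and 468 at 72 h (5.41 CPM). That was 83.7-fold higher than the level of 3 counts, the value set for a count of 0. Cnn1 (calponin 1, chr9:22099216-22109630), a marker of differentiated smooth muscle, had 0 and 159 UMIs, 28.4-fold higher by the same reckoning, and again 0 at 6 weeks. Casq2, the calcium store protein calsequestrin 2, had 0, 80 and 14 UMIs, likewise 14.3-fold higher at 72 h. All 3 were detected in few cells at 72 h, with a UMI of Pdlim3 in 3.15%, of Cnn1 in 1.27% and of Casq2 in 0.959%.

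At 6 weeks the gain was narrower. Of the 18 members that reached 10 CPM, 2 were raised (Acta2 and Lmod1) and 0 were lowered, against 2.91% raised and 1.62% lowered among all 8137 genes that did. Lmod1 entered the 18 only through its 6-week level. The median ratio was 1.16 against 0.857. Tpm1 (1.91) and Fbxl22 (1.82) were just inside the 2-fold line. With TMM scaling both passed it and 4 members were raised, beside 356 of all 8108 genes. Without the HSC-like cells that had UMIs of at least 2 VSMC markers, 86.5% of this library, 1 was (Acta2), beside 373 of 8310 genes. It was also only Acta2 at a Leiden resolution of 0.8, where 2917 cells of this library were named HSC-like and 2501 were left unnamed.

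Non-muscle relatives of the members and their regulators were read beside them. Of 13 counterparts, among them Actb, Actg1, Myh9, Tpm3 and Tpm4, 1 was raised at 72 h, near the 7.06% of all genes. It was Myh10, a non-muscle myosin heavy chain, from 19.2 to 51.8 CPM (2.70-fold). At 6 weeks 1 was lowered, cytoplasmic β-actin (Actb), from 5727 to 2800 CPM (a ratio of 0.489). Of 12 regulators of smooth muscle transcription and contraction, 9 reached 10 CPM, and 2 of them were lowered at 72 h, where 9.54% of all genes were. Srf, the factor that binds CArG boxes, went from 35.6 to 13.0 CPM (0.366) and Foxs1 from 104.1 to 37.8 CPM (0.363). At 6 weeks Nfatc4 was raised from 9.66 to 19.8 CPM (2.05). Myocardin (Myocd), the partner of Srf in smooth muscle, had 0, 6 and 0 UMIs in the 3 HSC-like groups and was at 27.0 CPM in uninjured VSMC-like cells.

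The 72 h library held different levels in different HSC-like cells. It fell mainly into cluster 3 (4903 cells), led by Saa3, Plagl1 and Cthrc1, the cycling cluster 5 (1245 cells), led by Ube2c and Cenpf, and cluster 0 (1105 cells), which also held 4037 of the uninjured cells. Acta2 was at 986.3 CPM in cluster 3, 839.4 CPM in cluster 5 and 316.2 CPM in cluster 0, against 34.2 CPM in uninjured cells of cluster 0. Tnnt2 (23.1, 25.4 and 2.77 CPM) and Actg2 (24.1, 15 and 2.07 CPM) differed more between the clusters. Tpm2 had another order, at 293, 482.9 and 487.4 CPM. At 6 weeks, Acta2 was at 208.1 CPM in cluster 0, 65.5 CPM in cluster 2, which was led by Cxcl10 and Irf1, and 861.9 CPM in the 73 cycling cells of cluster 5.

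HSC-like cells of each library were next ordered by their fibrillar collagen (Col1a1, Col1a2 and Col3a1, summed per UMI) and divided into quartiles. At 72 h, Acta2 was at 312.7 CPM in the quartile lowest in collagen and 1546 CPM in the highest (4.94-fold), and Actg2 at 1.31 and 50.3 CPM (38.4-fold). Tnnt2 was at 3.55 and 37.5 CPM and Pdlim3 at 0.219 and 16.3 CPM. Lmod1 was at 7.81 and 21.3 CPM (2.73-fold). These 5 were the members higher in collagen-rich cells by the rule of 2-fold and 10 CPM, with 1 lower and 16 within 2-fold. Actg2, Tnnt2, Pdlim3 and Lmod1 reached 10 CPM only in the highest quartile, so their entry depends on that quartile. Smtn went the other way, at 136.1 and 64.8 CPM (0.476), and Tpm2 was at 520.1 and 337.1 CPM. By the rule of 2-fold and 10 CPM, 4.12% of all genes that reached 10 CPM were higher in the top quartile and 3.8% lower. In uninjured cells Acta2 (11.9 and 61.2 CPM) and Tagln (245.3 and 594.2 CPM) were higher in the top quartile, where 0.47% of all genes were higher and 0.099% lower. At 6 weeks no member that reached 10 CPM was at least 2-fold higher in the top quartile (2.23% of all genes were). Below that level, Pdlim3 (0.1635 and 0.892 CPM), Tnnt2 (0.490 and 1.56 CPM) and Sorbs2 (0.0817 and 0.669 CPM) were higher in the top quartile. Sh3bgr (1.144 and 0 CPM) and Pcp4l1 (0.654 and 0 CPM) were lower there. All of these rest on few UMIs, with ratio intervals of 1.22 to 50.2 for Pdlim3 and 1.13 to 359 for Sorbs2. Acta2 was at 168.9 CPM in the lowest and 109.3 CPM in the highest, and Lmod1 was lower, at 17.7 and 7.81 CPM, as 1.34% of all genes were. Quartiles of 1 library are cells of the same pooled mice, and median UMIs per cell were 9954.5 in the lowest and 13159 in the highest quartile at 72 h.

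A portal minus central score was made from the study's lists of genes zoned along the lobule, 47 portal and 29 central, with the members taken out. Those lists were chosen by the study on these uninjured cells, and 5 members (Tagln, Myl9, Tpm2, Myh11 and Tpm1) were on the portal list, so their direction along the score is not independent evidence in any of the libraries. Acta2, which was on neither list, was at 2.73 CPM in the most central quartile of uninjured cells and 76.9 CPM in the most portal, a ratio of 28.2. Lmod1, also on neither list, was at 0.637 and 10.3 CPM, and Cald1 at 517 and 1054 CPM. The listed Myh11 was at 3.00 and 54.9 CPM. Acta2, Lmod1 and Myh11 reached 10 CPM only in the most portal quartile, so their entry depends on that quartile. By the rule of 2-fold and 10 CPM, 8 members were higher at the portal end, 0 lower and 10 within 2-fold. All 5 listed members were among the 8, and of the 13 on neither list 3 were higher. Over all genes that reached 10 CPM, 2.28% were at least 2-fold higher at that end and 1.19% lower.

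At 72 h the end quartiles of the score were close in Acta2, with 592.6 CPM in the most central and 628.6 CPM in the most portal (1.06). Both lay below the 871.5 CPM of all 72 h HSC-like cells, so the level was higher between the ends. Myh11 was higher at the portal end, at 8.49 and 47.5 CPM (5.59-fold), and Tnnt2 was higher at the central end, at 18.7 and 6.29 CPM (0.336). Actg2 (5.66 and 17.97 CPM), Tpm2 (257 and 557.2 CPM) and Smtn (58.4 and 150.2 CPM) were higher at the portal end. By the rule of 2-fold and 10 CPM, 4 members were thus higher there, 1 lower and 16 within 2-fold, against 2.73% of all genes higher and 2.52% lower. Myh11, Actg2 and Tnnt2 reached 10 CPM only in the end quartile where they were higher, so their entry depends on that quartile. Over all 72 h HSC-like cells Tnnt2 was at 21.1 CPM and Actg2 at 19.4 CPM, each above both of its end quartiles. At 6 weeks 13 of the 19 members that reached 10 CPM were at least 2-fold higher at the portal end, against 3.46% of all genes higher and 2.45% lower there. All 5 members on the portal list were among the 13, and of the 14 on neither list 8 were higher. Among the 13, Myh11, Lmod1 and Hspb6 reached 10 CPM only in the most portal quartile. Acta2 was at 34.6 and 441.2 CPM (12.7-fold), Myh11 at 7.07 and 76.7 CPM, Lmod1 at 4.225 and 38.1 CPM and Tagln at 182.7 and 1317 CPM. These 4 members were also higher at the portal end without injury.

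**Figure D2:**
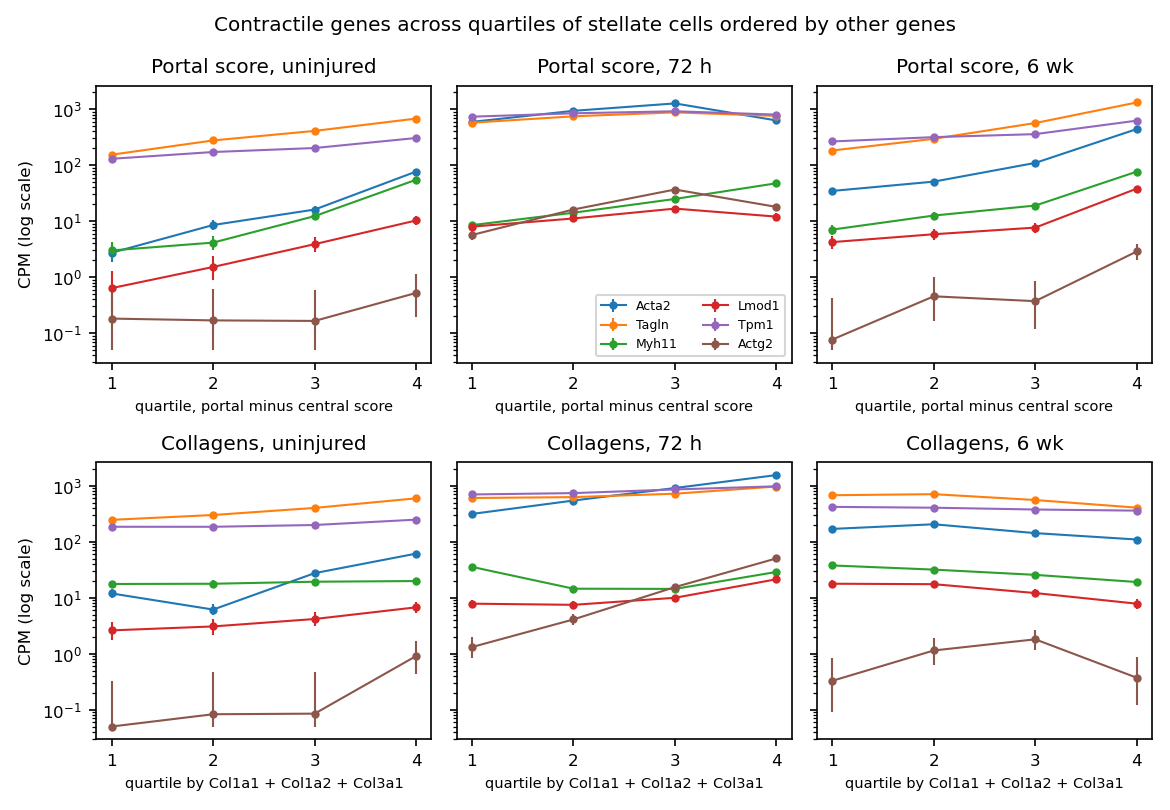
Levels of 6 members in CPM on a log axis in quartiles of HSC-like cells, ordered from central to portal (top row) or from low to high fibrillar collagen (bottom row), for the uninjured, 72 h and 6-week libraries, with a level of 0 drawn at 0.05 CPM. Without injury Acta2 is at 2.73 CPM in the most central and 76.9 CPM in the most portal quartile. At 72 h its end quartiles are close (592.6 and 628.6 CPM), whereas along the collagen order its ends are at 312.7 and 1546 CPM.

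A member was said to stay with smooth muscle when its level in uninjured VSMC-like cells was at least 10 CPM and at least 10 times its highest level in HSC-like cells of the 3 libraries. This held for 19 of the 34 members, against 4.57% of the 7688 genes that reached 10 CPM in those VSMC-like cells. The list was written as a list of smooth muscle genes, so a high share is how it was made, and what the data add is which members fail. Of the 8 members gained by HSC-like cells, 5 still stayed with smooth muscle by this rule (Acta2, Actg2, Tpm2, Lmod1 and Tnnt2) and 3 did not (Tpm1, Hspb6 and Fbxl22). A further 14 members stayed and were not gained, and 12 did neither.

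Some of the calcium-handling and accessory genes were nearly absent from HSC-like cells. Pln (phospholamban, chr10:53337667-53345987), which restrains the calcium pump of the sarcoplasmic reticulum, was at 1300 CPM in uninjured VSMC-like cells. It had 0, 4 and 0 UMIs in the 3 HSC-like groups. The VSMC-like level was 20105 times that of 3 counts, the value set for 0, in the uninjured group. Sncg (γ-synuclein, chr14:34370274-34374789) was at 923.9 CPM and had 0 UMIs after the gene filter in each of the 3 HSC-like groups. Its level was 14287 times that of 3 counts in the uninjured group. Pcp4l1 (chr1:171173262-171196268), a relative of a calmodulin regulator, was at 1827 CPM against at most 0.307 CPM. Tcap (titin cap, chr11:98383811-98384953) was at 270.7 CPM against 3 UMIs in each injured HSC-like group, with an interval of 1607 to 22848 for the ratio. Nrip2 (483.5 CPM), Sorbs2 (441.3 CPM), an adaptor of the actin cytoskeleton, and Sh3bgr (365.9 CPM) were at 4203, 1534 and 633 times their highest HSC-like level. Cnn1, at 728.6 CPM, was at 396 times (338 to 467), and Casq2, at 46.3 CPM, at 50 times.

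VSMC-like cells held more of each gained member than any HSC-like group. Acta2 was at 15346 CPM in uninjured VSMC-like cells, 17.6 times (17.4 to 17.8) the 72 h level of HSC-like cells, and 99.1% of the VSMC-like cells had a UMI of it. Lmod1, at 1024 CPM, was at 75.0 times its highest HSC-like level, Tnnt2, at 712.4 CPM, at 33.8 times, Actg2, at 538.8 CPM, at 27.7 times, and Tpm2, at 5373 CPM, at 15.1 times. Myh11, at 1864 CPM, was at 66.0 times, against 17.7 times for Myl9 and 12.1 times for Tagln, and the cytoskeletal adaptors Pdlim3 and Synpo2 were at 81.6 and 26.8 times. Hspb6 (8.47), Fbxl22 (7.40) and Tpm1 (4.29, 4.22 to 4.35) were below the 10-fold line.

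Neither gained nor staying with smooth muscle were 12 members. Cald1, Csrp1, Mylk, Actn1, Flna, Des and Myl6 were higher in VSMC-like cells than in the highest HSC-like group by 2.38 to 6.09 times. Smtn and Pdlim7 were within 2-fold, at 1.84 and 1.95 times. Vcl (vinculin), the membrane anchor of actin, was lower in VSMC-like cells, at 118.3 CPM against 180.8 CPM in uninjured HSC-like cells, a ratio of 0.654 (0.604 to 0.708). Actc1 (1.78 CPM) and Ryr2, the ryanodine receptor of the calcium store (9.96 CPM), were under the minimum in VSMC-like cells.

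**Figure D3:**
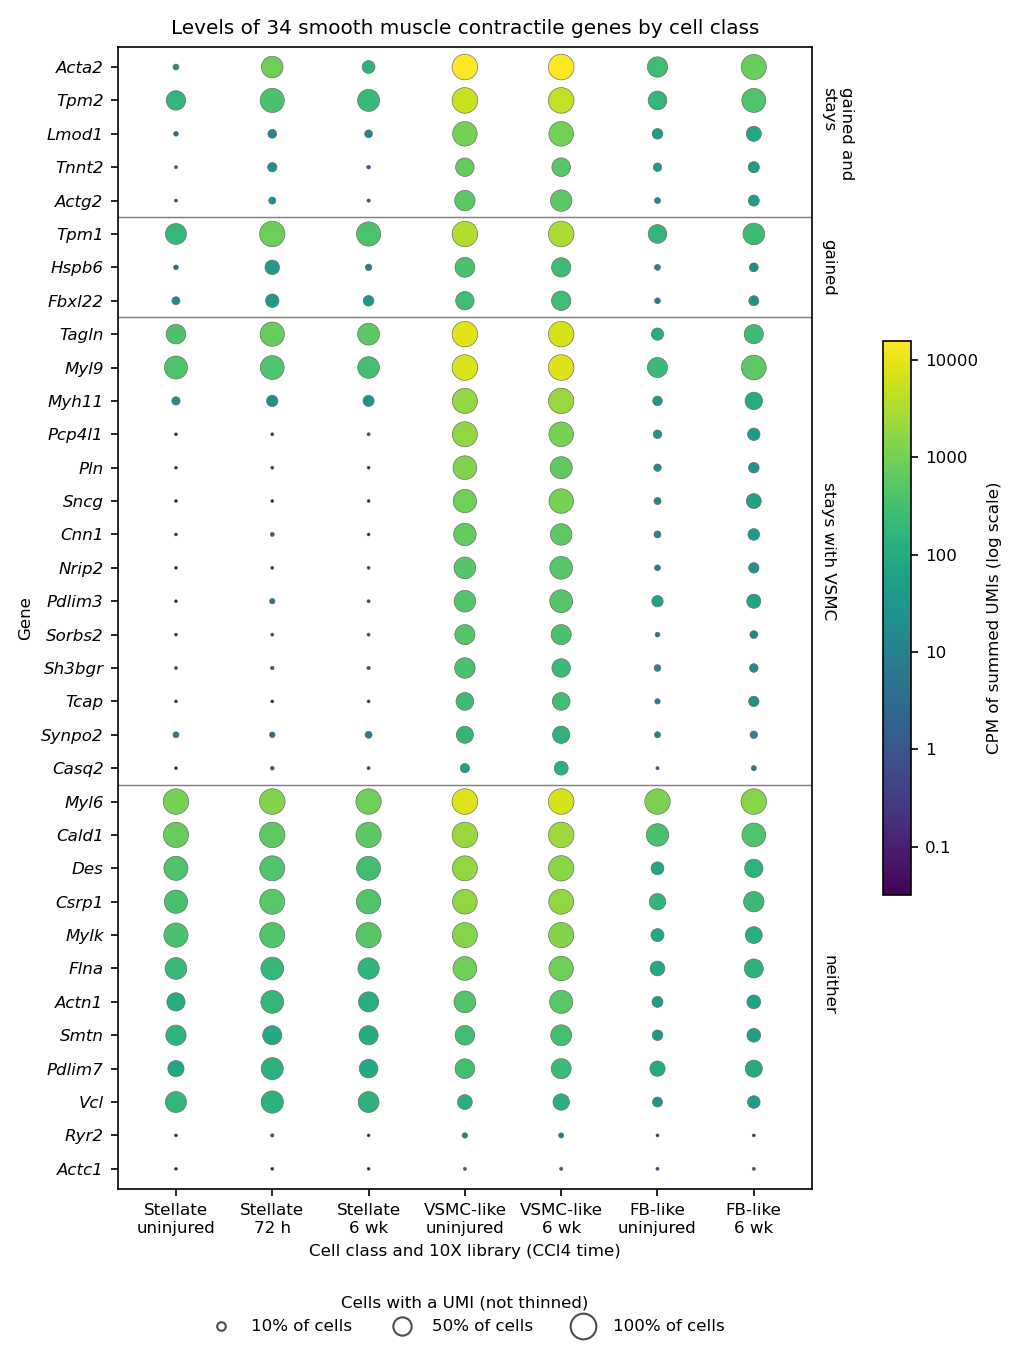
Levels of the 34 members in the 7 class and library groups of the 10X data, with colour for CPM on a log scale (levels below 0.03 drawn at 0.03) and dot size for the percent of cells with a UMI, grouped by whether a member was gained by HSC-like cells, stayed with VSMC-like cells, both or neither. Pln, Sncg, Pcp4l1, Nrip2, Tcap and Sorbs2 are at or near 0 in the 3 HSC-like columns, whereas Acta2 runs from 26.0 to 871.5 CPM there and stands at 15346 and 14721 CPM in VSMC-like cells.

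Single wells of plate 6 held both cell types on 1 plate, all from uninjured mice, and were set side by side without a test. HSC-like wells of the portions Uninjured 2 (154 wells) and Uninjured 3 (158 wells) had 28.97 and 0.762 reads per 1000000 (RPM) of Acta2, against 23809 RPM in the 34 VSMC-like wells of Uninjured 1. Myh11 was at 58.1 and 22.2 RPM against 10340 RPM. Tpm1 (208.2 and 147.9 against 5359 RPM) and Des (357.7 and 263.9 against 2920 RPM) were nearer. The plate's portions had different digests, 1 PF and 2 HSC, and the labels do not say which portion had which. Uninjured 1 held 0 HSC-like wells, and Uninjured 2 and Uninjured 3 held 0 VSMC-like wells. Cell class, portion and mouse thus cannot be told apart on this plate.

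VSMC-like cells of the 6-week library differed little from uninjured ones in most members. Of 32 members that reached 10 CPM, 1 was raised and 1 lowered, against 2.51% and 0.453% of the 8172 genes that did, and the median ratio was 0.955 against 1.04. Casq2 was raised from 46.3 to 131.8 CPM (2.85-fold, 2.50 to 3.26), and Pln was lowered from 1300 to 634.7 CPM (0.488, 0.473 to 0.504). Pcp4l1 (1827 to 1096 CPM, 0.6) and Sh3bgr (365.9 to 224.5 CPM, 0.614) were the next lowest. Acta2 was at 15346 and 14721 CPM (0.959) and Myh11 at 1864 and 2078 CPM (1.11). Of the 13 counterparts and 12 regulators, 0 were raised or lowered in VSMC-like cells.

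The 2 members that passed the rule were also read inside the finer clusters of VSMC-like cells. Casq2 was at 206.6 and 289.5 CPM, uninjured and 6 weeks, in fine cluster 11, which was led by Higd1b, and at 31.9 and 40.6 CPM in fine cluster 4, led by Pcp4l1 and Pln. In fine clusters 4, 11 and 13 its ratio was 1.27 (1.04 to 1.57), 1.4 (1.14 to 1.74) and 1.25 (0.774 to 2.06), above 1 and below 2 in each. Cluster 11 held 166 of the uninjured and 1088 of the 6-week VSMC-like cells, and cluster 4 held 1349 and 1704. Casq2 is itself among the leading genes of cluster 11, though the members were left out of the clustering. Pln was lower at 6 weeks in each fine cluster, with ratios of 0.569, 0.497 and 0.698 in clusters 4, 11 and 13, past 2-fold only in cluster 11. Pcp4l1 was lower in each too, with 0.692, 0.629 and 0.6. The share of VSMC-like cells in the library was 28.6% without injury and 52.2% at 6 weeks.

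FB-like cells of the 6-week library had more of many members. Of 31 members that reached 10 CPM, 13 were raised and 0 lowered, against 1.49% and 0.462% of the 8435 genes that did, and the median ratio was 1.73 against 0.996. Sorbs2, Tcap, Hspb6, Fbxl22 and Nrip2 reached 10 CPM only at 6 weeks, so their entry into the 31 depends on that level. Sncg went from 13.6 to 65.6 CPM (4.81-fold), Myh11 from 32.1 to 111.9 CPM (3.48), Acta2 from 287.8 to 808.9 CPM (2.81) and Tagln from 114.9 to 254.9 CPM (2.22). Among the raised members were Sncg, Tcap (4.04) and Nrip2 (3.18), which had at most 8 UMIs in any HSC-like group. Beside this, the level in FB-like cells as a percent of that in VSMC-like cells of the same library had a median of 1.99% over the 19 members that stay with smooth muscle (1.05% to 12.7%) without injury and 6.28% (3.25% to 14.9%) at 6 weeks. It was higher at 6 weeks for 19 of those 19. The same held for 33 members of the whole list, all but Ryr2 (0.989% and 0.963%), so the rise was not particular to those 19. No such percent is given over all genes, so the rise does not single out the list. The 6 VSMC markers, which are no members, summed to 430.5 and 768.6 CPM in the same FB-like cells. A UMI of Acta2 was in 62.3% of uninjured FB-like cells at a median of 4892 UMIs and in 95.2% at 6 weeks at 6291 UMIs. What free RNA from VSMC-like cells, whose share of the library rose from 28.6% to 52.2%, contributed was not tested.

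The Smart-seq2 plates add replicates for VSMC-like and FB-like cells. Reads of the wells of 1 mouse on 1 plate were summed into a portion, which gave 5 BDL, 4 CCl4 and 5 uninjured portions on 5 plates, and conditions were compared with edgeR's quasi-likelihood test with plate as a term and Benjamini-Hochberg adjustment over all genes tested. Mouse names such as Peak BDL 1 recur on several plates and may be the same animals, so the p-values may be too small. In VSMC-like wells 0 of 34 members passed an adjusted p of 0.05 after BDL, after CCl4 or between the 2 effects, with 5, 1 and 0 at an unadjusted p under 0.05, and 0.00699%, 0% and 0% of the 14305 genes tested were called. In FB-like wells 0 of 32 members passed in any of the 3, with 1, 0 and 1 at an unadjusted p under 0.05, and 0% of 14723 genes were called. The shares of all genes called are at the adjusted p. All genes at an unadjusted p under 0.05 were not counted, so the member counts at that level do not single out the list. DESeq2 called Pcp4l1 after BDL and Sncg after CCl4 in VSMC-like wells, and Des after BDL and Casq2 after CCl4 in FB-like wells. These calls are given without the share of all genes that DESeq2 called, so they do not single out a member.

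In VSMC-like wells Acta2 and Pln overlapped in all 3 conditions. Acta2 ran from 23786 to 31712 RPM with a median of 29199 in uninjured portions, from 23216 to 33759 with a median of 28161 after BDL, and from 26065 to 34648 with a mean of 29209 ± 3929 (SD, n = 4) after CCl4. The log2 fold change was 0.03 ± 0.14 (SE) after BDL and 0.10 ± 0.17 after CCl4. Pln, lowered in the 10X library at 6 weeks, was at 1114 ± 139.4 RPM (SD, n = 5) in uninjured and 1103 ± 69.3 RPM (SD, n = 4) in CCl4 portions. The log2 fold change was -0.02 ± 0.27 (SE), and the portions overlapped.

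Pcp4l1 was at 1304 to 3397 RPM with a median of 2427 in uninjured portions, 668.7 to 1393 RPM with a median of 1011 after BDL and 1577 to 2574 RPM after CCl4. After BDL the log2 fold change was -0.99 ± 0.30 (edgeR, unadjusted p = 0.00564, adjusted p = 0.523). Of the BDL portions 1 lay within the uninjured range. Nrip2 was at 766.8 to 1038 RPM without injury and 405.2 to 684.1 RPM after BDL, without overlap, with a log2 fold change of -0.65 ± 0.26 (edgeR, unadjusted p = 0.0282, adjusted p = 0.695). Sncg went the other way, at 636.9 to 882.8 RPM without injury and 885.5 to 1078 RPM after CCl4, without overlap, at 0.52 ± 0.16 (edgeR, unadjusted p = 0.00731, adjusted p = 1). None of the 3 passed the adjustment over all genes. Of the 34 members in VSMC-like wells, 1 lay wholly below the uninjured portions after BDL (Nrip2). After CCl4 1 lay wholly above (Sncg) and 1 below (Ryr2). In FB-like wells 1 lay below after BDL (Des) and 1 after CCl4 (Pcp4l1). Such separations were not counted over all genes, so they do not single out a member.

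In FB-like wells the member with the smallest p was Des. It was at 375.3, 444.9, 258.1, 195.1 and 282.5 RPM in the 5 uninjured portions, at 48.6, 157.4, 78.1, 103.3 and 59.3 RPM after BDL and at 315.1, 363, 321.3 and 132.9 RPM after CCl4. Every BDL portion lay below every uninjured portion, and the CCl4 portions overlapped the uninjured ones. The log2 fold change after BDL was -1.96 ± 0.37 (edgeR, unadjusted p = 0.000142, adjusted p = 0.136), and with each portion left out in turn the adjusted p ran from 0.0902 to 1. The difference between the BDL and the CCl4 effect was -2.02 ± 0.59 (edgeR, unadjusted p = 0.00483, adjusted p = 1). The 5 cholangiocyte markers summed to 56.8 to 2175 RPM in the BDL portions of FB-like wells and to 10.2 to 25.3 RPM in the uninjured ones, and their part in the Des values was not tested. Acta2 in FB-like wells overlapped in all 3 conditions, at 181.2 to 971.3 RPM without injury, 310.9 to 1407 RPM after BDL and 277.8 to 1173 RPM after CCl4. The log2 fold change of Acta2 after CCl4 was 0.47 ± 0.66 here, beside the 2.81-fold ratio of the FB-like 10X cells.

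**Figure D4:**
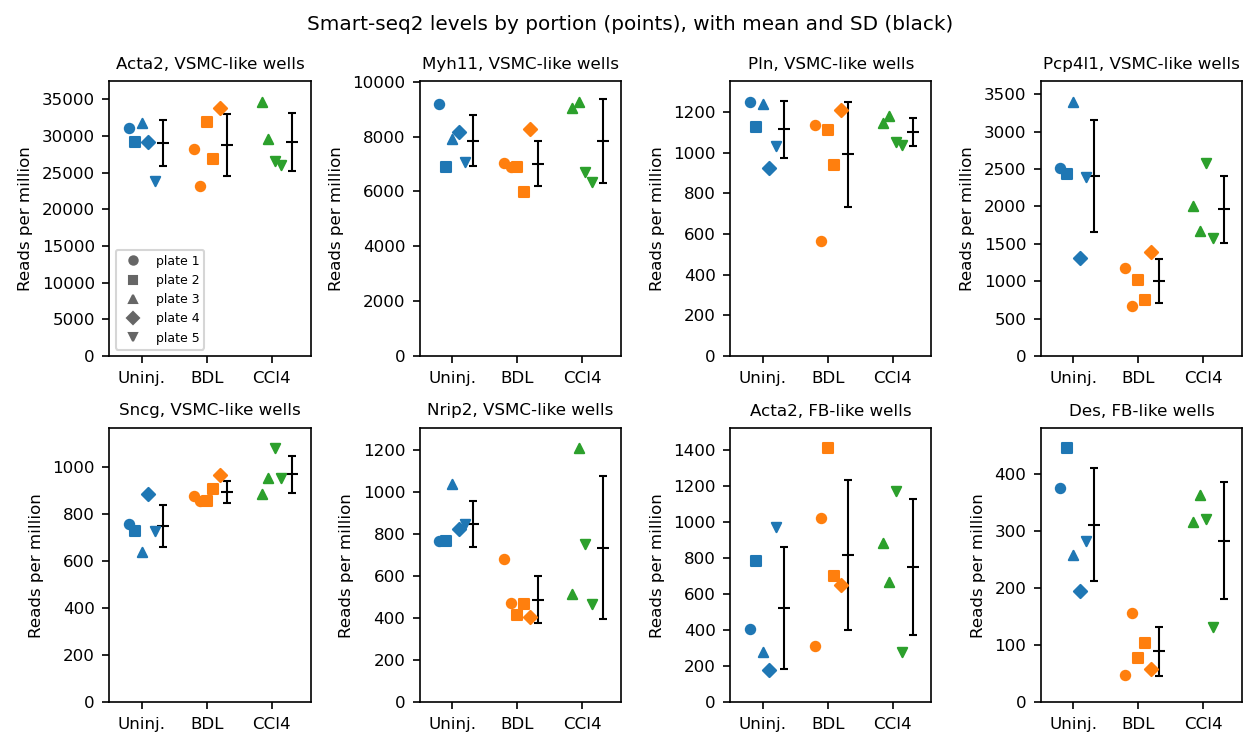
Reads per 1000000 (RPM) of 6 members in VSMC-like wells and of 2 in FB-like wells, 1 point per portion (a mouse on a plate), with the marker shape for the plate and black bars for the mean ± SD. Nrip2 in VSMC-like wells and Des in FB-like wells have all BDL portions below all uninjured ones, while Acta2 and Pln in VSMC-like wells overlap in all 3 conditions.

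VSMC-like wells were themselves of 3 kinds. Plate cluster 1 was led by Ephx3 and Higd1b, cluster 2 by Tcap and Pgam2, and cluster 6 (77 wells over all plates) by Actc1 and Npnt. The levels given next leave out plate 6, and those of cluster 6 rest on 38 uninjured, 18 BDL and 19 CCl4 wells. Casq2 was at 816.3, 408.7 and 622.8 RPM in uninjured, BDL and CCl4 wells of cluster 1 and at 47.7, 72.1 and 65.3 RPM in cluster 2. The cardiac genes Actc1 and Tnnt2 were highest in cluster 6, with Actc1 at 470.2, 1768 and 606.4 RPM and Tnnt2 at 4386, 3568 and 3528 RPM. In cluster 1 they were at 0.237, 0.368 and 3.76 RPM and at 615, 396.1 and 448.1 RPM, and in cluster 2 at 37.9, 4.196 and 16.45 RPM and at 551.8, 188 and 389.3 RPM. Ryr2 was highest in cluster 2, at 108.3, 89.0 and 49.5 RPM, against 2.34, 21.0 and 10.7 RPM in cluster 6. Members varied between these kinds of VSMC-like well by more than between conditions for Casq2 and Actc1, and the portions differed in the kinds they held, with 27.3% to 68.5% of VSMC-like wells in cluster 1 without injury, 35.8% to 90.3% after BDL and 26.7% to 84.4% after CCl4.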

How the data were processed

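Single-cell RNA was measured in 5 libraries of 10X Chromium and on 6 plates of Smart-seq2. For 10X, reads went through Cell Ranger 2.1.0 with mm10, and the authors deposited counts of UMIs per gene and cell, without normalization. For Smart-seq2, the authors used STAR on mm10 to which eGFP and the spike-ins were added, and deposited the read counts of rpkmforgenes for each gene and well. Tool names are from the methods and the submitters' processing notes.

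Cells with fewer than 300 genes or over 30% mitochondrial UMIs and genes seen in fewer than 3 cells were left out, as were wells more than 3 median absolute deviations from the median of depth, genes or spike-in share. Cells were clustered (2000 variable genes without members, counterparts, regulators and collagens, 10 components, 30 neighbours, Leiden resolution 0.2, set after clusters had been looked at) and named from marker lists. Doublets were scored and left out only as an alternative. CPM are UMIs of a gene per 1000000 UMIs of a group of cells; intervals (Poisson, Clopper-Pearson and exact for ratios) cover counting error only. A count of 0 was set to 3 counts for a ratio, and 2 groups with at most 3 counts got none. Portions of at least 5 wells entered edgeR's fits with TMM factors, filterByExpr and plate as a term. Wells kept were 656 of 762 BDL, 482 of 510 CCl4 and 927 of 1020 uninjured. The wells of plate 6 were not fitted. The rule for named genes was that each of the 34 members is named, and of the counterparts (13) and regulators (12) up to 4 values. The members and lists were chosen with earlier results of these data known.

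The calculations were tested on simulated data. Alternatives changed the scaling, doublets, summing, classes, minimum, fold, clustering, plate term, filter and tool. Work was done in Python 3.11.15 (NumPy 2.4.6, SciPy 1.17.1, pandas 2.3.3, scikit-learn 1.9.0, leidenalg 0.10.2, matplotlib 3.10.9) and R 4.3.3 (edgeR 4.0.16, DESeq2 1.42.0). Positions are those of GRCm38 (mm10).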

Additional observations from a re-analysis of the deposited data

Results flagged for a closer look

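Within each condition of the plates, Dixon's criterion marked a portion with a large gap to the nearest other portion for its group's range. Chance alone meets it in about 1 group in 20 if values are normal and groups independent. Neither was tested, and the members of a portion come from the same wells, so no excess over chance can be read from the counts. Of 204 groups (34 members, 2 classes, 3 conditions), 24 had a marked portion, 21 with a high and 3 with a low value. The portion Peak BDL 1 of plate 2 held 8 of the 24.

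In FB-like wells after BDL, that portion was high for Cald1 (831.6 RPM), Mylk (452.6 RPM), Sorbs2 (20.98 RPM against 0.4612 to 1.528 RPM in the others), Pcp4l1 (9.372 RPM), Tcap (3.267 RPM) and Casq2 (0.9028 RPM). Ryr2 was high in Peak BDL 1 of plate 4 (0.3253 RPM). In FB-like wells after CCl4, Csrp1 was high in Peak CCl4 1 of plate 5 (780.3 RPM). In uninjured FB-like wells, Actg2 (75.41 RPM) and Casq2 (25.98 RPM) were high on plate 5, Myh11 (165.9 RPM), Sncg (24.16 RPM) and Tcap (2.371 RPM) were high on plate 2, and Cald1 (365 RPM) and Myl9 (307 RPM) were low on plate 4.

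In VSMC-like wells after BDL, Actc1 (527.4 RPM against 0.2611 to 74.19 RPM) and Cald1 (2720 RPM) were high in Peak BDL 1 of plate 2, Nrip2 (684.1 RPM) in Peak BDL 1 of plate 1 and Smtn (1153 RPM) in Peak BDL 1 of plate 4. After CCl4, Tagln (6772 RPM), Tpm2 (6727 RPM) and Flna (8776 RPM) were high in Peak CCl4 1 of plate 3. In uninjured VSMC-like wells, Casq2 was high on plate 4 (1038 RPM against 126.5 to 270.5 RPM) and Smtn was low on plate 5 (562.8 RPM).

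Wells laid out as Control are in no comparison. The 12 of them held 341 to 16575 reads each, with 102 reads of Acta2 in all, above the 3 counts that a count of 0 allows, and 20 of the 34 members had more than 3 reads over these wells.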

How the results depend on the processing

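Of 88 counts of members in the 10X data under alternatives, 75 were within 1.5 times the count reported, and of 54 on the plates, leaving out a portion aside, 46 were. The alternatives at Leiden resolution 0.8, without the HSC-like cells of cluster 2, without shared barcodes and with portions summed per plate were chosen after seeing the data. Members raised in HSC-like cells at 6 weeks are given beside all genes raised under the same setting. They numbered 4 with TMM scaling (356 of 8108 genes) and 1 without the 86.5% of cells that had UMIs of 2 VSMC markers (373 of 8310). Without a minimum level 8 were raised (1336 of 15721), and at 1.5-fold 6 were (514 of 8137). There was 1 at Leiden resolution 0.8 (232 of 8102) and 4 without cluster 2 (262 of 8245). Lowered were 1 without the VSMC marker cells (Myl9, with 370 of 8310 genes) and 1 at 1.5-fold (Smtn, with 964 of 8137). At 72 h without a minimum level, 14 were raised (2444 of 16537 genes) and 1 was lowered (Synpo2, with 1742 of 16537). In the same cells 1 was lowered at 1.5-fold (Smtn, with 2215 of 8384 genes). At 1.5-fold 3 members were lowered in VSMC-like cells at 6 weeks (214 of 8172 genes) and 20 raised in FB-like cells (437 of 8435). On the plates, DESeq2 called 1 member each in VSMC-like wells after BDL and after CCl4 and in FB-like wells after BDL and after CCl4. Without a filter on counts, edgeR called 2 in VSMC-like wells after BDL, 1 in FB-like wells after BDL and 2 between the effects in FB-like wells, and without the plate term 1 in FB-like wells after BDL. These plate calls are given without the share of all genes called under the same setting, so they do not single out a member. Leaving out each portion in turn gave 0 members called in 84 contrast results, from 14 fits for each cell class. The members staying with smooth muscle numbered 19 to 21. The cause of these differences was not tested. No paired analysis was possible by replicate number because the numbers in the labels belong to whole plates. Injured and uninjured portions of 1 plate were compared within it through the plate term. With 5 and 4 portions a group, large differences can be missed as well as small ones, so 0 calls do not show that members did not differ.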
